A study of Mus musculus with 4 samples.

Results

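The genes described here belong to 3 imprinted places on mouse chromosome 6. They are Peg10 with its neighbours Sgce, Ppp1r9a, Asb4 and Calcr, then Mest with Copg2 and Klf14, and Nap1l5, which lies alone inside Herc3. They were chosen by name, as genes that the field knows as imprinted in the mouse, and the rule uses no value measured here. All 9 were found among the 24026 genes of the expression table, and among the 1293 of these that lie on chromosome 6. Their RNA was measured in F123-ESCs, a male mouse embryonic stem cell line from an F1 cross of S129/Jae and CAST (Mus musculus castaneus), in which S129 chromosomes are maternal and CAST chromosomes paternal. The study used this line to ask whether the maternal and the paternal copy of a genomic region contact the nucleolus in the same cell. All 4 libraries, replicates 1 to 4, are of untreated cells with the genotype S129/CAST. S129 is the maternal allele in every library, so an effect of the strain and an effect of the parent cannot be told apart for any gene. The cells were grown on inactivated mouse embryonic fibroblasts in medium with KSR and LIF, passaged at least 2 times without these feeders, and harvested about 48 h after plating, so the design holds no other condition and the comparison is between the alleles of each library.

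An imprinted gene is expressed mainly from the copy inherited from one parent, because DNA methylation set in the egg or the sperm at an imprinting control region is kept in the cells of the embryo. The control regions of Peg10, Mest and Nap1l5 carry this methylation on the maternal copy, and these genes, together with Sgce, are known as paternally expressed. Ppp1r9a, Asb4, Calcr, Copg2 and Klf14 are known as maternally expressed, several of them in some tissues only, such as placenta, brain or muscle.

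The values are RPKM, reads of the allele scaled by the length of the gene and by all reads of that allele in the library. A level is the mean of the S129 and CAST values of a library. The S129 share is the S129 value divided by the sum of both. A gene read from the maternal allele alone has 100%, and a gene with the same RPKM on both has 50%. Only reads that cover a variant between the strains could be assigned to an allele. The libraries held 34120416 to 56627972 such reads, recovered from the steps between the RPKM values. Of these reads, 50.8% to 51.0% were S129 in each library. Each allele is scaled by its own total, so equal numbers of reads give an RPKM share slightly below 50%. Across the 11946 genes whose mean reached 1 RPKM, Pearson's r between libraries was 0.989 to 0.997. The cells carry an S129 X chromosome, and CAST received 0.111% to 0.131% of the reads of its X-linked genes, a measure of how often S129 reads were given to CAST. The opposite error, CAST reads given to S129, cannot be read from the X chromosome. The labels do not say whether the libraries come from separate cultures, so the p-values measure the spread between these libraries, which may be technical.

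The embryonic stem cell markers Pou5f1, Nanog and Sox2 were measured at 29.5, 84.5 and 125 RPKM. None of the 9 feeder fibroblast markers was at 0, and their summed level was 183 to 230 RPKM, of which Col1a2 gave 166 RPKM and Lum, the lowest, 0.0462 RPKM. The levels of all markers depend on the gene length by which reads were divided. Over the 4 libraries, Col1a2 had 26634 reads, while Postn had 9220 reads at 15.4 RPKM and Col1a1 6274 reads at 5.68 RPKM. Trophoblast markers were at most 0.703 RPKM and primitive endoderm markers at most 1.40 RPKM, whereas of the neural markers Nes was at 76.2 RPKM and Pax6 and Sox1 were under 1 RPKM. In bulk RNA, fewer cells of a type and less RNA per cell cannot be told apart, and the part of any other cells in the values below was not tested.

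RefSeq promoter windows were found for 6 of the 9 genes, Calcr, Ppp1r9a, Asb4, Mest, Copg2 and Nap1l5, as 11 windows of the 250 bases before an annotated start (GRCm38.p6). Mest has 3 windows and Asb4 has 2, and 1 of each is shown. The 4 windows printed here are those of Mest and Nap1l5, known as paternally expressed and methylated at these starts on the maternal copy, and those of Copg2 and Asb4, known as maternally expressed. They are written 5′ to 3′ on the strand of the gene, with each CpG, the pair of bases that carries the methylation, in capitals. Mest is at chr6:30737800-30738049 (plus strand), Nap1l5 at chr6:58907127-58907376 (minus strand), Copg2 at chr6:30896795-30897044 (minus strand) and Asb4 at chr6:5383136-5383385 (plus strand).
Mest: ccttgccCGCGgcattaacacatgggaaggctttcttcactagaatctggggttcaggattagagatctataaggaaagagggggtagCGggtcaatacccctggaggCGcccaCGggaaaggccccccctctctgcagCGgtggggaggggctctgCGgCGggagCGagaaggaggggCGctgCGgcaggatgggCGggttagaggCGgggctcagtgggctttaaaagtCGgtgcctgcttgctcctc
Nap1l5: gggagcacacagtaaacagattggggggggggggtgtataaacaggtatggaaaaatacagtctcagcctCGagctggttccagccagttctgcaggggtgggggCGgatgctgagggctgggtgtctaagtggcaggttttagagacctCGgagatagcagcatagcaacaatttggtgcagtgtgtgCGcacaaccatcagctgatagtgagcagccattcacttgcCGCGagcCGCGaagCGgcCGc
Copg2: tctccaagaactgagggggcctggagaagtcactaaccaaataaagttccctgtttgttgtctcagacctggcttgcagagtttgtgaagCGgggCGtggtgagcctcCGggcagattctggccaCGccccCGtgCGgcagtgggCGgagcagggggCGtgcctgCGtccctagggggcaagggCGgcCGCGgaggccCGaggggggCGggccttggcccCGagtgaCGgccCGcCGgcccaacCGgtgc
Asb4: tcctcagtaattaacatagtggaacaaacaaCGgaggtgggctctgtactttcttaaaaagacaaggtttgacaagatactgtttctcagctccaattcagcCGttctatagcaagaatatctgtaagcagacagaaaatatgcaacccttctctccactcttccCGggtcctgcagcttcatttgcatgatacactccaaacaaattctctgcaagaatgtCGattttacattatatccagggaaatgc

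The window of Copg2 holds 19 CpG, the printed window of Mest 14, that of Nap1l5 10 and the printed window of Asb4 4, against a median of 6 over all 32851 windows. The other windows of Mest hold 7 and 14 CpG, and the other window of Asb4 holds 8. Each window was searched for TGCCGC on both strands, the hexamer in which ZFP57, a zinc finger protein that keeps imprints methylated, is known to recognise a methylated CpG. Of the 11 windows of these genes, 5 held it, in 4 genes, and 8.68% of all windows did. The hexamer contains a CpG, and these shares were not compared at equal numbers of CpG. A pair of the Mest windows starts 3 bases apart and holds the same matches, so that 4 of 10 separate stretches have one. The printed window of Mest holds it at bases 9 to 14 and 184 to 189, that of Copg2 at bases 135 to 140 and that of Nap1l5 at bases 227 to 232. Calcr also holds it, at bases 11 to 16 of a window with 24 CpG. The windows of Asb4, those of Ppp1r9a with 8 and 35 CpG, that of Calcr with 2 CpG and that of Mest with 7 CpG have no match. A match is a description of the letters and not a site of binding.

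In the deposited values, Peg10 and Mest stood far above the others, which for Mest holds only with the short gene length behind its RPKM (9.06 RPKM with all its annotated exons). Peg10 (ENSMUSG00000092035, chr6:4747306-4760517 in mm10) is a gene derived from a retrotransposon that the placenta needs. Its levels were 91.1, 94.4, 108.6 and 93.7 RPKM in replicates 1 to 4, a mean of 96.9 ± 7.91 RPKM (SD, n = 4) and rank 1045 of the 24026 genes. Mest (ENSMUSG00000051855, chr6:30723547-30748465) encodes a protein of the alpha/beta hydrolase family. It was at 110.2, 112.8, 91.3 and 105.0 RPKM, a mean of 104.8 ± 9.58 RPKM (SD, n = 4). In the deposited values both were higher than each of the other genes in every library.

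A middle group held Ppp1r9a, Copg2 and Sgce. Ppp1r9a (chr6:4902917-5165661), which encodes neurabin, an actin-binding protein that brings protein phosphatase 1 to its targets, was at 15.9 ± 0.54 RPKM (SD, n = 4). Copg2 (chr6:30747554-30896794), a subunit of the coat of vesicles between Golgi and endoplasmic reticulum, was at 14.8 ± 1.18 RPKM, and Sgce (chr6:4674350-4747207), which encodes the membrane protein epsilon-sarcoglycan, at 10.5 ± 0.36 RPKM (SD, n = 4 each). Nap1l5 (chr6:58905233-58907076), an intronless gene of the nucleosome assembly protein family, and Asb4 (chr6:5383386-5433022), an ankyrin repeat protein of ubiquitin ligases, were low, at 1.60 ± 0.25 and 1.11 ± 0.16 RPKM (SD, n = 4 each). Klf14 (chr6:30956023-30959078), an intronless gene for a Krüppel-like transcription factor, was at 0.162 ± 0.055 RPKM, and Calcr (chr6:3685680-3764714), the receptor of calcitonin, at 0.0489 ± 0.018 RPKM (SD, n = 4 each). Over the 4 libraries Klf14 had 90 reads and Calcr 34, against 121952 for Peg10.

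**Figure D1:**
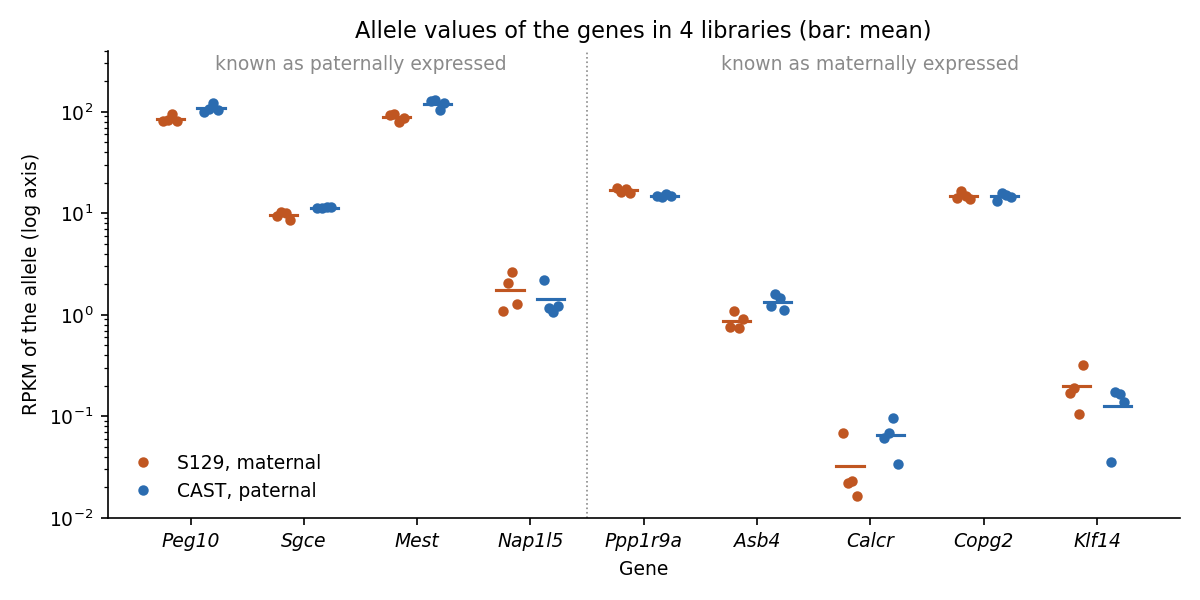
RPKM of the S129 allele (orange) and of the CAST allele (blue) of each gene on a log axis, with 1 point per library and a bar at the mean of the 4 libraries. Peg10 and Mest lie near 100 RPKM on both alleles, and Calcr and Klf14 below 1 RPKM.

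In the order Mest, Peg10, Ppp1r9a, Copg2, Sgce, Nap1l5, Asb4, Klf14, Calcr, each gene was compared with the next on log2 of the level. In 6 of the 8 comparisons the higher gene was higher in 4 of 4 libraries (exact permutation test that flips the signs of the libraries, two-sided, p = 0.125, which is the lowest that 4 libraries can reach, and 0.167 after adjustment over the 8). Mest and Peg10 did not differ beyond their spread (3 of 4 libraries, exact p = 0.375), and neither did Ppp1r9a and Copg2 (3 of 4 libraries, exact p = 0.25). These levels depend on the gene length by which reads were divided. The length behind the values of Mest was 341 bp, that of a single short transcript, while its annotated exons together span 3945 bp, and the sources used here do not say on which exons its reads were counted. With the length of all annotated exons, Mest had 9.06 ± 0.83 RPKM (SD, n = 4), a factor of 11.6 lower, Sgce 1.76, Ppp1r9a 3.79 and Copg2 9.12 RPKM. For Peg10 both lengths were 6667 bp and the level was unchanged. Peg10 then stood alone at the top in 4 of 4 libraries, 10.6-fold above Copg2, and Copg2 was above Mest in 2 of 4 libraries (exact p = 1).

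**Figure D2:**
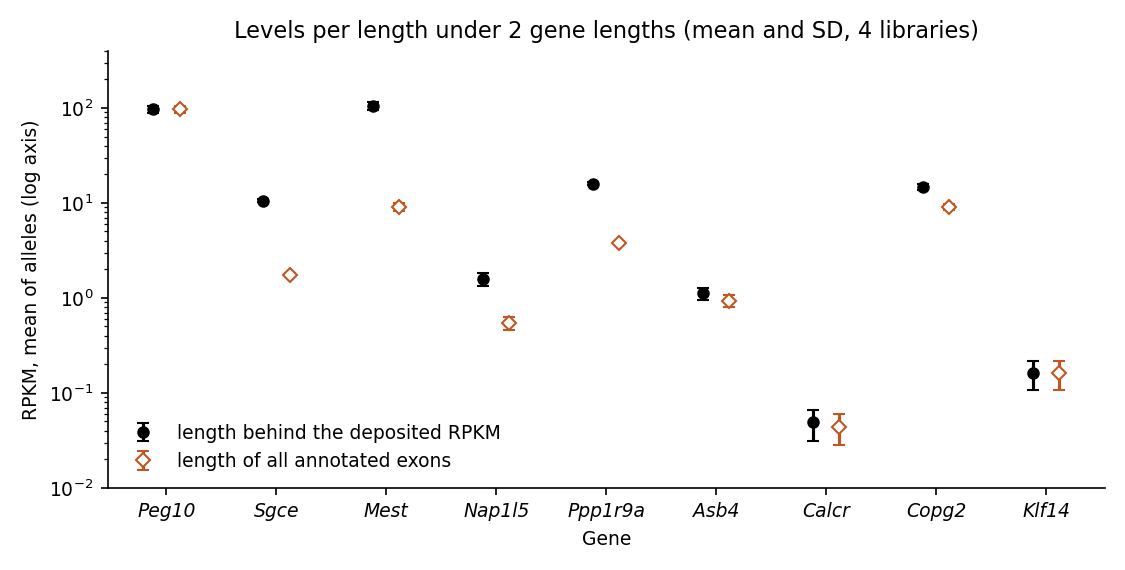
Level of each gene (RPKM, mean of both alleles, log axis) with the length behind the deposited values (black circles) and with the length of all annotated exons (open orange diamonds), as mean and SD of 4 libraries. Mest moves from 104.8 to 9.06 RPKM and Peg10 stays at 96.9 RPKM.

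All 9 genes were read from both alleles, and none was confined to the allele from which it is known to be expressed. Peg10 had S129 values of 81.6, 82.6, 96.1 and 81.9 RPKM in replicates 1 to 4 and CAST values of 100.5, 106.2, 121.1 and 105.4 RPKM. CAST was higher in every library and the values of the alleles did not overlap, but the maternal copy still gave 44.1% ± 0.51 (SD, n = 4) of the RPKM. Of its reads, 55030 were S129 and 66922 CAST, a share of reads of 45.1%, which is not scaled by all reads of each allele. The exact (Clopper-Pearson) 95% interval of this share of reads, 44.8% to 45.4%, covers counting error only. The log2 difference of Peg10, S129 minus CAST on the log2(RPKM + 0.1) scale, was -0.34 (standard error 0.031; limma, Benjamini-Hochberg adjusted p = 0.000999 over all genes tested), which is a CAST mean 1.27-fold the S129 mean.

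Mest showed the same direction. Its S129 values were 93.3, 95.5, 78.7 and 88.0 RPKM and its CAST values 127.2, 130.1, 103.9 and 122.1 RPKM, so that CAST was higher in each library and the alleles did not overlap. The S129 share was 42.4% ± 0.51 (SD, n = 4) over 6765 reads. The log2 difference was -0.44 (standard error 0.031, adjusted p = 0.000452 from limma), a CAST mean 1.36-fold the S129 mean. The share of Mest was below that of Peg10 in 4 of 4 libraries, by 1.73 ± 0.60 percentage points (SD, n = 4), which the exact permutation test over the libraries gives its smallest p of 0.125 (0.333 after adjustment over the 8 comparisons of neighbours in the order of shares).

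Sgce starts 99 bp from Peg10 on the opposite strand, so both genes are transcribed away from one shared stretch. It had 9.39, 10.2, 10.1 and 8.64 RPKM on S129 and 11.3, 11.4, 11.4 and 11.5 RPKM on CAST in replicates 1 to 4. CAST was the higher allele in all 4 libraries, again without overlap, and the S129 share was 45.7% ± 2.0 (SD, n = 4). The log2 difference was -0.25 (standard error 0.056, adjusted p = 0.0179 from limma). The call was lost without replicate 1 (-0.24, adjusted p = 0.067 from limma), and also when all columns were rescaled to the same autosomal sum (-0.15, adjusted p = 0.112 from limma). The share of Sgce was above that of Peg10 in 3 of 4 libraries, by 1.55 ± 2.0 percentage points (SD, n = 4, exact p = 0.375).

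Nap1l5 rested on few reads and its libraries went both ways. Its S129 and CAST reads numbered 20 and 39 in replicate 1, 33 and 18 in replicate 2, 41 and 16 in replicate 3 and 14 and 13 in replicate 4. Replicate 1 was therefore mostly CAST, replicates 2 and 3 mostly S129, and replicate 4 even, with an S129 share of 54.7% ± 17 (SD, n = 4). The log2 difference of 0.27 (standard error 0.39) did not exceed the spread between libraries (adjusted p = 0.577 from limma), and without replicate 3 it was -0.047. Herc3, which contains Nap1l5, was at 49.2 RPKM with an S129 share of 56.2%. Whether reads of Herc3 were counted for Nap1l5 was not tested.

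Among the genes known as maternally expressed, Ppp1r9a was the only one higher on S129 in all 4 libraries. Its S129 values were 17.9, 16.3, 17.3 and 15.9 RPKM and its CAST values 14.7, 14.6, 15.6 and 15.0 RPKM. The alleles did not overlap, and the S129 share was 52.9% ± 1.4 (SD, n = 4), close to the median of chromosome 6, 53.5%. The log2 difference was 0.17 (standard error 0.044, adjusted p = 0.0291 from limma). It did not pass without replicate 1, 2 or 3 (adjusted p = 0.076, 0.092 and 0.087 from limma), nor without pairing the alleles by library (adjusted p = 0.079).

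Asb4 is known as maternally expressed but was higher on CAST, the paternal allele in this cross. It had 0.751, 1.10, 0.744 and 0.909 RPKM on S129 and 1.22, 1.59, 1.46 and 1.13 RPKM on CAST, with CAST higher in every library and no overlap of the alleles. From 114 to 222 reads stood behind each library. The S129 share was 39.3% ± 4.6 (SD, n = 4) and the log2 difference was -0.57 (standard error 0.11, adjusted p = 0.01 from limma), a CAST mean 1.54-fold the S129 mean.

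Copg2, which is transcribed toward Mest and shares 912 bases with it at its end, had nearly the same RPKM on both alleles. It had 14.1, 16.7, 14.9 and 13.9 RPKM on S129 and 13.2, 16.0, 15.2 and 14.4 RPKM on CAST. S129 was higher in replicates 1 and 2 and CAST in replicates 3 and 4, so the alleles overlapped, and the share was 50.4% ± 1.2 (SD, n = 4). The log2 difference was 0.02 (standard error 0.040, adjusted p = 0.671 from limma). The library kit marks the strand, but the sources used here do not say whether the counting used it, so reads in the shared bases could have been given to either gene.

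Klf14 and Calcr were below 1 RPKM in both alleles together and so were not in the fit. Klf14 had 55 S129 and 35 CAST reads over the 4 libraries, an S129 share of reads of 61.1% with an exact 95% interval of 50.3% to 71.2%. In single libraries its S129 share of RPKM ran from 39.1% to 82.9%, with 18 to 28 reads each. Calcr had 12 S129 and 22 CAST reads, a share of reads of 35.3% with an interval of 19.7% to 53.5%. By RPKM its S129 share was 32.3% ± 15 (SD, n = 4). Both intervals cover counting error only, and neither gene was called where the filter on low values let it in. With no filter the log2 difference was 0.39 for Klf14 (standard error 0.27, adjusted p = 0.322 from limma) and -0.32 for Calcr (standard error 0.14, adjusted p = 0.147 from limma). The added 0.1 RPKM exceeds every allele value of Calcr (0.0163 to 0.0963 RPKM) and makes such differences smaller. Without it, the CAST mean of Calcr was 1.99-fold its S129 mean, and the S129 mean of Klf14 1.54-fold its CAST mean. A difference between their alleles was not detected at this depth and with this pseudocount.

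**Figure D3:**
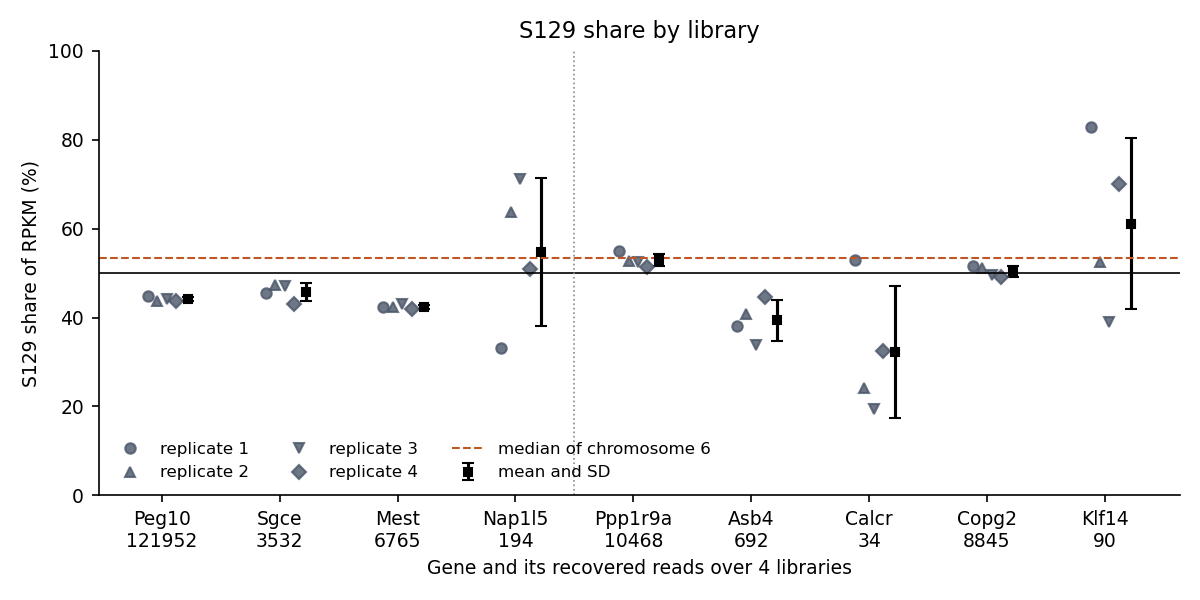
S129 share of the RPKM of each gene (in %), with a symbol for each of the 4 replicates and a black square with its SD for the mean, and the recovered reads over the 4 libraries under each name. Peg10, Sgce, Mest and Asb4 lie below 50% in all libraries, Ppp1r9a lies at the median of chromosome 6 (dashed line, 53.5%), and Nap1l5, Calcr and Klf14 spread widely.

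Of the 7 genes tested, 4 were thus higher on CAST, 1 was higher on S129 and 2 were not called. In the same fit over 13341 genes, 31.4% were called higher on S129 and 31.3% higher on CAST, so that a call by itself is common in this hybrid. The split depended on the scaling, since 4187 and 4182 genes were called with the deposited values and 5121 and 3072 with the same autosomal sum in every column, which raised the median log2 difference of all genes by 0.10. On chromosome 6, of 636 genes tested, 51.4% were called higher on S129 and 16% higher on CAST, and the median log2 difference was 0.19. The median S129 share of the chromosome was 53.4% to 53.9% in single libraries, and in these terms Peg10, Sgce, Mest and Asb4 lay on the other side of an even split from most genes of their chromosome. By mean share over the libraries, the medians of chromosomes 3, 8 and 16 were 37.2%, 45.6% and 62.0%. Those of the remaining autosomes lay between 48.7% (chromosome 19) and 50.2% (chromosome 11).

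With the median of the chromosome taken out in each library, 5 of the 7 genes were higher on CAST and none higher on S129. Under this centring 29.4% of all genes were called in each direction, and on chromosome 6 26.4% toward S129 and 29.1% toward CAST. The log2 differences were then -0.54 for Peg10, -0.64 for Mest, -0.45 for Sgce and -0.78 for Asb4 (adjusted p = 0.000362, 0.000218, 0.00299 and 0.00461 from limma). Copg2, not called in the deposited values, was at -0.18 (adjusted p = 0.0213 from limma), and Ppp1r9a was at -0.036 (adjusted p = 0.538 from limma). The direction of Ppp1r9a and Copg2 therefore depended on whether they were read against an even split or against their chromosome.

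The genes around these places were examined in the same fit. Within 1 Mb of the starts of Peg10, Mest and Nap1l5 the table lists 58 other genes, of which 32 were tested. Of these, 20 were higher on S129, 4 were higher on CAST and 8 were not called, with a median log2 difference of 0.31. Over all tested genes of the chromosome, 51.4% were higher on S129 and 16% on CAST, with a median of 0.19. With the median of the chromosome taken out, 11 of the 32 were called toward S129 and 5 toward CAST, beside 26.4% and 29.1% of the genes of the chromosome.

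Around Peg10, 7 of the 9 tested neighbours were higher on S129 and 1 was higher on CAST, beside 51.4% and 16% of the tested genes of the chromosome. Casd1, a sialic acid acetyltransferase that lies next to Sgce, was even, with a share of 51.7% ± 4.9 (SD, n = 4; adjusted p = 0.502 from limma). Col1a2, a chain of type I collagen on the other side of Casd1 and a feeder marker, had 54.4% ± 0.66 (SD, n = 4; adjusted p = 0.003 from limma). Tfpi2, a protease inhibitor known as maternally expressed in placenta, was the only neighbour here higher on CAST, with a share of 35.5% ± 4.9 (SD, n = 4) and a log2 difference of -0.78 (adjusted p = 0.00521 from limma). The paraoxonase gene Pon2, 551 kb beyond Peg10 and also known as maternally expressed in placenta, had 87.8% ± 0.84 S129 (SD, n = 4), a log2 difference of 2.73 (standard error 0.050). Its relative Pon3 had 64.5% ± 6.0 and Dync1i1, a chain of the motor protein dynein, 81.8% ± 5.2 (SD, n = 4 each). Maternal shares above that of every tested gene of the chosen 9 were thus measured between Ppp1r9a and Asb4 and beyond Asb4.

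Around Mest, 9 of the 19 tested neighbours were higher on S129, 3 were higher on CAST and 7 were not called, close to the shares of 51.4% and 16% on the chromosome. Cep41, a gene for a protein of the centrosome and cilia the nearest tested neighbour before Mest, had a share of 45.6% ± 7.2 (SD, n = 4; adjusted p = 0.26 from limma). The neighbours higher on CAST were 1700012C14Rik, Mir96 and Mkln1os, with shares of 34.3%, 37.2% and 34.2%. Without replicate 1, only 2 neighbours of all 32 were called higher on CAST. Around Nap1l5 all 4 tested neighbours were higher on S129, and the gene that contains it, Herc3, a ubiquitin ligase, had 56.2% ± 2.2 (SD, n = 4; adjusted p = 0.0069 from limma).

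**Figure D4:**
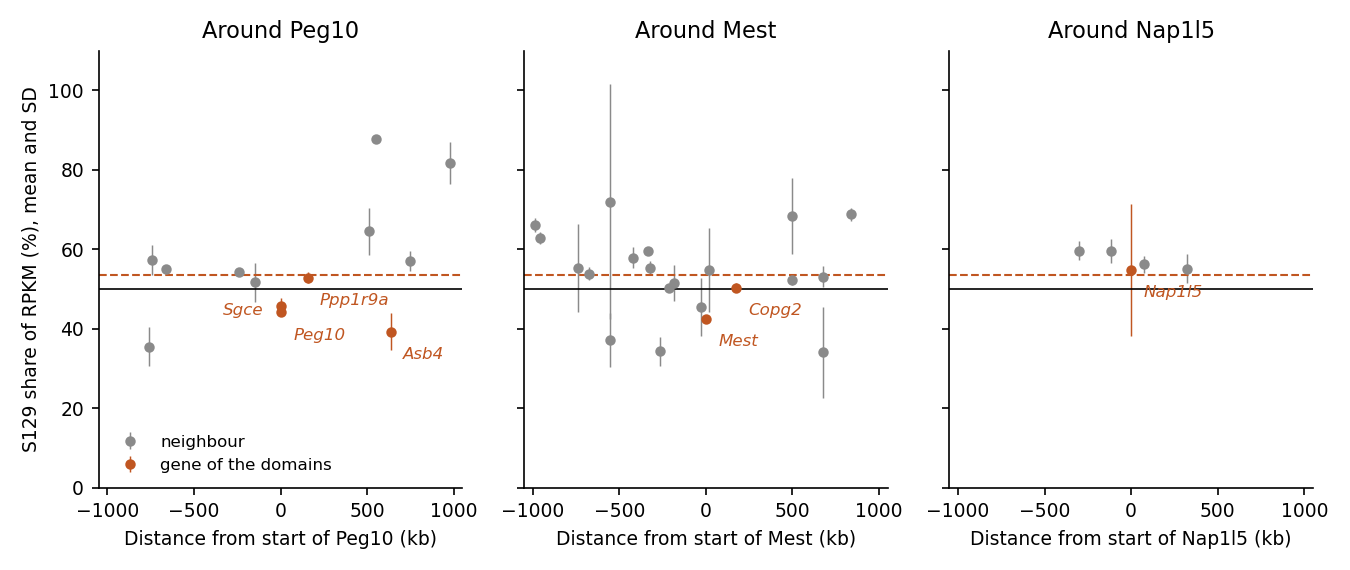
S129 share (in %, mean and SD of 4 libraries) of the tested genes within 1 Mb of the starts of Peg10, Mest and Nap1l5. The axis is the distance of their start in kb along the strand of the named gene, which is the minus strand for Nap1l5. Neighbours (grey) lie mostly at or above the median of chromosome 6 (dashed line, 53.5%), while Peg10, Sgce, Asb4 and Mest (orange) lie below 50% (solid line).

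Mest contains the gene of the microRNA miR-335, which is made from an intron of Mest. RefSeq places its hairpin at chr6:30741299-30741396 (GRCm38.p6, plus strand), and its mature forms are shown with the seed, bases 2 to 8, in capitals, since this part of a microRNA pairs with its targets.
miR-335-5p: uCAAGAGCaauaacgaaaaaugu
miR-335-3p: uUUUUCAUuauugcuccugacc

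The row of Mir335 had 28.1 ± 6.7 RPKM (SD, n = 4) from 540 reads and an S129 share of 54.8% ± 11 (SD, n = 4), with no difference beyond the spread (0.29, standard error 0.26, adjusted p = 0.384 from limma). The libraries were made from polyA-enriched RNA, so these reads come from longer transcripts over the hairpin and do not measure the mature microRNA. Its share was 52.8% over whole reads, against 43.3% for Mest, a difference that was not tested.

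Imprinted genes on other chromosomes were read from the same fit, as lists drawn from general knowledge. Of 18 known as paternally expressed, 15 were tested, and 8 were higher on CAST, 1 was higher on S129 and 6 were not called, with a median log2 difference of -0.26. Of 11 known as maternally expressed, 10 were tested, and 9 were higher on S129, none was higher on CAST and 1 was not called, with a median of 0.97. Over all tested genes 31.4% were higher on S129 and 31.3% on CAST, and the median was -0.0034. The 4 paternally expressed genes of chromosome 6 had a median of -0.29, and the 3 tested maternally expressed ones a median of 0.02.

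Some of the genes elsewhere were read mostly from the known allele in these same libraries. Peg3, a zinc finger gene of chromosome 7, had an S129 share of 10.1% ± 0.50, and Usp29 beside it 16.3% ± 3.1 (SD, n = 4 each). The noncoding RNAs Rian and Meg3 of chromosome 12 had 81.8% ± 0.56 and 80.5% ± 0.78, and Phlda2 of chromosome 7 had 77.4% ± 1.4 (SD, n = 4 each). Others were near 50%, as Peg10 and Mest were. The amino acid transporter gene Slc38a4 had 45.6% ± 0.81, the splicing factor gene Zrsr1 45.8% ± 1.4, the growth factor gene Igf2 52.9% ± 5.5, H19 52.5% ± 0.48 and Igf2r, the receptor that clears IGF2, 51.2% ± 0.74 (SD, n = 4 each). Rtl1, known as paternally expressed, was the 1 gene of its list higher on S129, at 68.5% ± 2.6 (SD, n = 4). It overlaps transcripts of the opposite strand, and whether their reads were counted for Rtl1 was not tested.

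**Figure D5:**
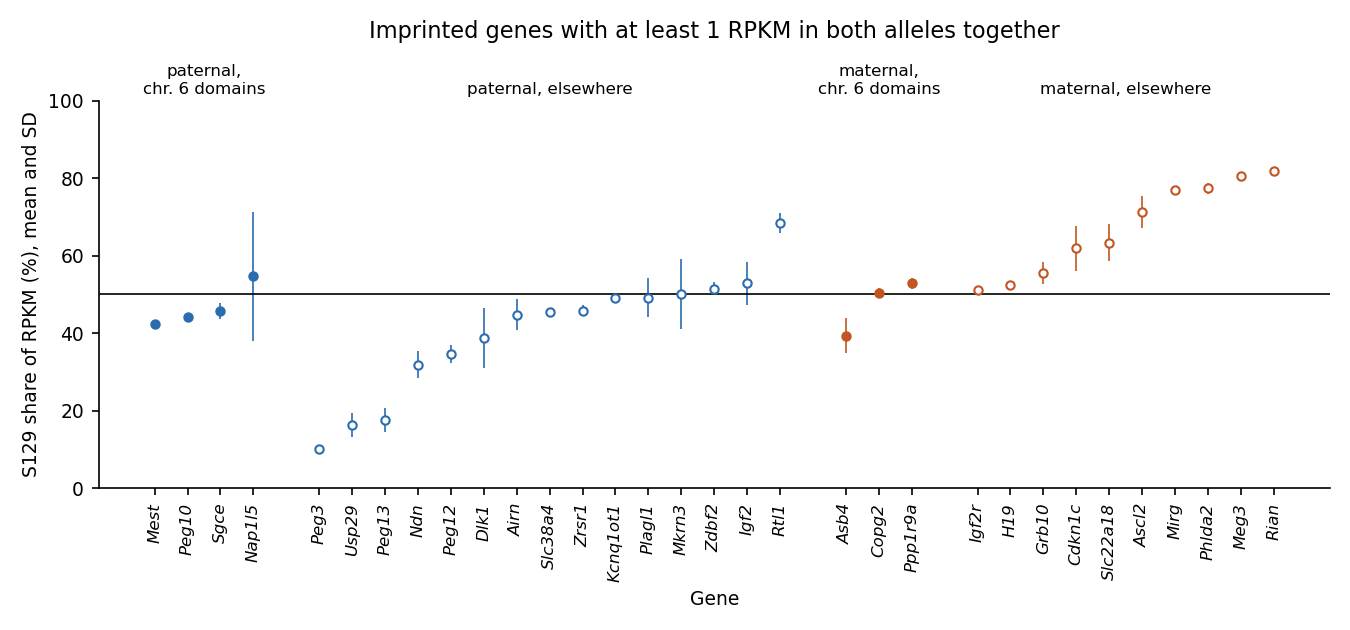
S129 share (in %, mean and SD of 4 libraries) of the imprinted genes that were tested, grouped by the parent from which they are known to be expressed (blue paternal, orange maternal), with filled points for the genes of the chromosome 6 domains and open points for genes elsewhere. Mest and Peg10, at 42.4% and 44.1%, lie far nearer to 50% than Peg3 at 10.1%.

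The proteins known to keep imprints were also measured. All 10 genes of the list were tested and had levels from 19.5 RPKM (Setdb1) to 2142 RPKM (Dnmt3l). These levels, too, depend on the gene length by which reads were divided. Dnmt3l had 85536 reads over the 4 libraries, fewer than Peg10, which had 121952 reads at 96.9 RPKM. Zfp57 was at 25.3 ± 0.99 RPKM (SD, n = 4) with an S129 share of 78.7% ± 1.8, and Trim28, the cofactor that ZFP57 recruits, was at 1310 RPKM. The DNA methyltransferase gene Dnmt1, which copies methylation after replication, was at 55.6 ± 5.8 RPKM (SD, n = 4). In this list 3 genes were higher on S129, 6 were higher on CAST and 1 was not called, beside 31.4% and 31.3% of all tested genes. No DNA methylation was analysed here.

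The autosomal genes whose 4 log2 differences lay closest to those of Peg10 were Cyb5b, Pik3r2 and Tbca, at a root mean square distance of 0.014 to 0.018 on the log2 scale, among 5738 genes with at least 10 RPKM. Those closest to Mest were Mcm6, Zfp141 and Psrc1, at 0.021 to 0.025. Within 0.1 of Peg10 lay 421 of these genes and within 0.1 of Mest 264.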

How the data were processed

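Polyadenylated RNA of F123-ESCs was made into stranded libraries and read from both ends (150 bp). The authors trimmed the reads (the submitters' processing notes name Trimmomatic 0.40) and mapped them with STAR to an mm10 genome masked at strain variants. SNPsplit then sorted the reads by allele, and the authors deposited RPKM per gene, allele and library. The deposited averages over libraries and their log10 values were not used. The counting program, the annotation and the use of strand are not given in the sources used here. The first S129 column, numbered with a minus sign, was read as replicate 1.

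Genes were matched by identifier to GENCODE M21 (23995 of 24026). Totals per allele and gene lengths were recovered from the steps of the RPKM values, and 20134 of 20243 genes above 0 (99.5%) gave whole reads in all 8 columns, within 0.02 reads and 2e-07 of the value. The differences S129 minus CAST of log2(RPKM + 0.1) in each library were tested by limma 3.58.1 (R 4.3.3), where the sum of both alleles reached 1 RPKM, with Benjamini-Hochberg adjustment and a threshold of 0.05. The pseudocount understates differences of low genes. Pairing comes from both alleles being reads of one library, whose columns deviated together (correlation 0.146 to 0.234, against -0.187 to 0.151 between libraries). Recovery and limma were tested on simulated data. Named genes were all 9 genes of the domains, called or listed genes within 1 Mb, fixed lists of imprinted, imprint maintenance and marker genes, and the 3 genes most like Peg10 and Mest. The genes and lists were chosen with earlier results of these data known. Alternatives were other pseudocounts, filters, scalings and lengths, a variance trend, no pairing, and each replicate left out.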

Additional observations from a re-analysis of the deposited data

Results flagged for a closer look

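Dixon's criterion was applied to the S129 value, the CAST value and the S129 share of each of the 9 genes, 27 quantities in all. A single library stood apart in 3 of them, where chance gives about 1 in 20, or 1.35 of 27. Peg10 had 96.1 RPKM on S129 in replicate 3, above 81.6 to 82.6 RPKM in the rest. Its CAST value was also highest in this library, and its share there was 44.2%. Nap1l5 had 2.22 RPKM on CAST in replicate 1, against 1.07 to 1.23 RPKM in the other libraries, which rests on 39 reads. Calcr had 0.0692 RPKM on S129 in replicate 1, which rests on 7 reads, against 0.0163 to 0.0232 RPKM in the other libraries. No cause of these values was tested.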

How the results depend on the processing

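Of 255 values computed under alternatives, 228 stayed the same: a tested value kept its direction and its side of the threshold, a level or share moved by less than 1 SD, and a count changed by less than 1.5 times. Peg10, Mest and Asb4 kept their direction and their call under all 12 alternatives, left-out replicates included. Sgce kept its direction and lost its call with the same autosomal sum and without replicate 1. The single gene higher on S129, Ppp1r9a, was not called (0 genes) without a filter on low values, without the replicate block, with the chromosome median taken out (-0.036), and without replicate 1, 2 or 3, so that this count ranged from 0 to 1 over the left-out replicates. Copg2 turned to -0.18 with the chromosome median taken out and to -0.0022 without replicate 1, and Nap1l5 to -0.047 without replicate 3. With a replicate left out, Copg2 ranged from -0.0022 to 0.044 and Nap1l5 from -0.047 to 0.68, and neither was called. Without the replicate block, which pairs the alleles of a library, 3292 and 3133 genes were called in place of 4187 and 4182, the 4 genes higher on CAST stayed called, and Ppp1r9a was the only one of the 9 genes to lose its call. Of the neighbours, 11 in place of 20 were higher on S129 with the chromosome median taken out, and 2 to 4 in place of 4 were higher on CAST with a replicate left out. The causes were not tested. With the length of all annotated exons, the levels of 6 genes moved by more than their spread, and from whole reads the S129 share was 45.1% for Peg10 and 43.3% for Mest. Few reads limit Nap1l5, Klf14 and Calcr, and PCR copies are not separate molecules, so their intervals are the least error. RPKM of different genes also depend on how many strain variants each holds, which was not used here.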
